A study of Arabidopsis thaliana with 32 samples.

Results

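Messenger RNAs that plants normally load into maturing seeds were followed in seedling roots of Arabidopsis thaliana grown on the International Space Station and on the ground. The set holds 10 genes: the seed storage albumins SESA1 (AT4G27140), SESA2 (AT4G27150) and SESA3 (AT4G27160), the oleosins OLEO1 (AT4G25140), OLEO2 (AT5G40420) and OLEO4 (AT3G27660), the late embryogenesis abundant protein EM6 (AT2G40170), the dehydrin XERO1 (AT3G50980), and the genes AT2G21820 and AT3G05260. They were picked by identifier from the gene column of 8 tables of RNA sequencing comparisons that the authors deposited, with results of those same tables known, so the levels and ratios given here describe the genes and are not tests of them. Of the 10 genes, 8 had a row in at least 1 table, among 5162 genes with a row in any table. The whole set had 15 rows, all of them in tables of the accession WS.

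Roots came from wild-type seedlings of 2 accessions, Col-0 and WS, at 2 ages, grown in orbit or in a ground chamber. The 8 groups of 4 libraries each were flight 4 day WS, ground 4 day WS, flight 8 day WS, ground 8 day WS, and the same 4 conditions in Col-0. All seedlings started from dry seeds stored dormant on the plates, grew under light-emitting diodes and were preserved in RNAlater before the whole root was dissected. Ground plants ran 48 h behind the flight plants. Each library of the younger age holds 5 to 8 roots and each of the older age 2 to 3, and preparation started from 10 ng of RNA, used 8 PCR cycles and did not mark the strand. The tables give 1 pooled level per group, as FPKM (fragments per kilobase of transcript, scaled to sequencing depth), and no level per library. Hence no spread between libraries can be shown. The ± values below are the standard errors implied by the authors' fold change and test statistic. They do not track the authors' p-values, so they are a rough scale and not calibrated errors. The depth of the libraries is unknown here. The tables list loci that the authors called with Cuffdiff at a q-value of 0.05 or less, so a gene without a row was not called or not tested there, and its level in those groups is not known.

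Seeds fill during late embryo development and then dry out. Napins, the 2S albumins, are small proteins packed into storage vacuoles as a reserve of nitrogen and sulfur. Oleosins coat the oil bodies that hold the seed's lipid, and late embryogenesis abundant proteins, dehydrins among them, are hydrophilic proteins that accumulate as the embryo acquires tolerance of drying. The storage program is driven by the B3-domain factors ABI3, FUS3 and LEC2, which bind RY elements, together with bZIP factors such as ABI5, which bind abscisic acid response elements. After germination the reserves are broken down, and lipid is turned into sugar through the glyoxylate cycle, whose marker enzymes are isocitrate lyase and malate synthase.

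The 250 bases upstream of the annotated transcript start are shown for the 3 napins, which share an arrangement of motifs, and for EM6 and XERO1, which carry an abscisic acid type element without an RY element. Sequences are those of RefSeq assembly TAIR10.1, which is the Col-0 reference, read 5′ to 3′ on the gene's strand. WS alleles were not used here. Capitals mark every match, on either strand, to the RY element (CATGCA), to the core of the abscisic acid response element (ACGTG) and to the G-box (CACGTG), which holds that core on both strands.
SESA1 promoter, chr4:13607079-13607328, plus strand: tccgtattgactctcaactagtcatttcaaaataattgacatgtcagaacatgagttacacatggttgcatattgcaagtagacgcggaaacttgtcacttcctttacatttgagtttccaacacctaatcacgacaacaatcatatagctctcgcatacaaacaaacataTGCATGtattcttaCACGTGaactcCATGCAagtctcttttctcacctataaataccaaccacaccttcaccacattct
SESA2 promoter, chr4:13609091-13609340, plus strand: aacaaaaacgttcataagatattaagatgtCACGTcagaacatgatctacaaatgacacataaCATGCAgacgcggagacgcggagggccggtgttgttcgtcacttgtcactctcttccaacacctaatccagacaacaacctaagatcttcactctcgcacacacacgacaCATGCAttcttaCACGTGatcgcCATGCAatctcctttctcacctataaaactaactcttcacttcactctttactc
SESA3 promoter, chr4:13611546-13611795, plus strand: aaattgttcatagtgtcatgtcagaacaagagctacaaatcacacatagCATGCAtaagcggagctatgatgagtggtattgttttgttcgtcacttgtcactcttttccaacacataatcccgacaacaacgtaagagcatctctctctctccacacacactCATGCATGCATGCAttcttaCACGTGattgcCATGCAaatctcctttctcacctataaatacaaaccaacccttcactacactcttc
EM6 promoter, chr2:16780369-16780618, minus strand: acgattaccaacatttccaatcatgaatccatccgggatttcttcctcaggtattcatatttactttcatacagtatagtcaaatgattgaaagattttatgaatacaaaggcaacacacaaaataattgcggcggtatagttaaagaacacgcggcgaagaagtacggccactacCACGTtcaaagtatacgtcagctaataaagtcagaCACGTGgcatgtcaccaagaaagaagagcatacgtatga
XERO1 promoter, chr3:18941675-18941924, plus strand: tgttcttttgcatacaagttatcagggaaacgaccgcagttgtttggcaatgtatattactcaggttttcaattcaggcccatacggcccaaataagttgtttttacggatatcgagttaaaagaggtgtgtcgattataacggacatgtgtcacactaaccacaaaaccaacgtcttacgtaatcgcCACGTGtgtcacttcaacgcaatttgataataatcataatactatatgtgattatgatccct

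SESA1 and SESA2 carried a G-box from base -65 to base -60 before the transcript start, and SESA3 carried one from -67 to -62. In each napin an RY element followed the G-box, from -54 to -49 in SESA1 and SESA2 and from -56 to -51 in SESA3. In EM6 the G-box lay from -39 to -34, and in XERO1 from -62 to -57. The core of the abscisic acid response element was found in 8 of the 10 genes, against 22.9% of 27443 promoters of the same length. A G-box was found in 7 of the 10, against 6.49% of all promoters. RY elements were found in 6 of the 10, namely the 3 napins and the 3 oleosins, against 8.43% of all promoters. Both the core and an RY element stood in 4 of the 10, the 3 napins and OLEO1, against 2.22% of all promoters. The 3 napins are neighbouring copies of similar sequence with nearly the same motif positions, so they are not independent entries in these counts. AT2G21820 held 1 core at the far edge of the window, and AT3G05260 held a G-box from -36 to -31. These matches describe letters in the Col-0 reference and do not show that a factor binds there.

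**Figure D1:**
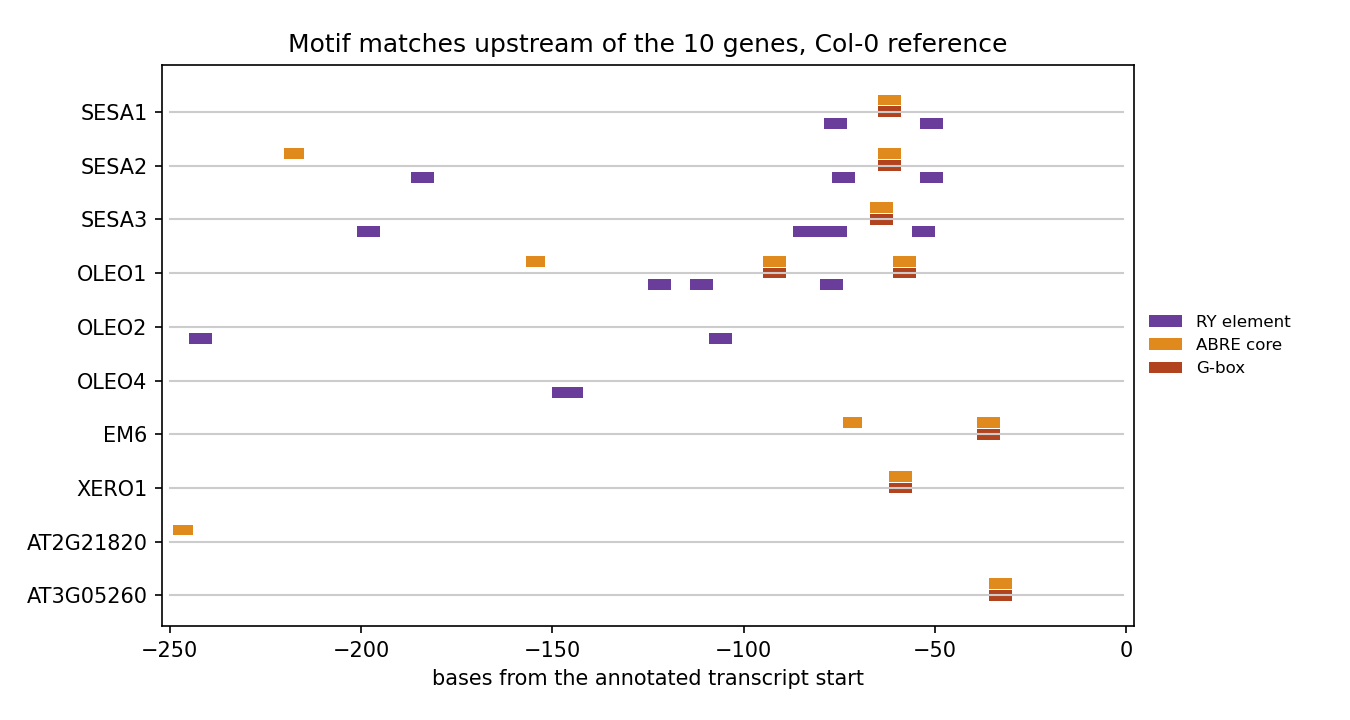
Positions of the 3 motifs in the 250 bases before the annotated transcript start of the 10 genes (x axis, bases from the start, negative upstream; 1 line per gene; coloured bars mark matches on either strand). The 3 napins share a G-box and an RY element between bases -67 and -49, while OLEO2 and OLEO4 hold RY elements without a G-box.

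The 3 napin genes lie side by side on the plus strand of chromosome 4 in TAIR10.1, SESA1 at chr4:13607329-13608031, SESA2 at chr4:13609341-13610075 and SESA3 at chr4:13611796-13612563. They span 5235 bases and are annotated with 1 exon each. OLEO1 lies at chr4:12900430-12901577, OLEO2 at chr5:16173340-16174783 and OLEO4 at chr3:10243244-10245023. EM6 lies at chr2:16779552-16780368, XERO1 at chr3:18941925-18942940, AT2G21820 at chr2:9302853-9303408 and AT3G05260 at chr3:1497483-1499096. The WS tables use another set of positions, in which 4.79% to 5.41% of loci overlap the named gene in TAIR10.1 against 100% in the Col-0 tables, so positions are taken from the annotation alone. The longest transcripts of the 10 genes measure 556 to 1385 nt, with a median of 751.5 nt, against 1516.5 nt for 27444 protein-coding genes.

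The napins were detected in 4 day WS roots and listed at 0 in 8 day WS roots, in flight and on the ground alike. SESA2 was listed at 0 FPKM in flight 8 day roots, against 59.7 FPKM in flight 4 day roots, and at 0 FPKM in ground 8 day roots, against 38.4 FPKM in ground 4 day roots. SESA3 was listed at 0 FPKM in flight 8 day roots, against 12.4 FPKM in flight 4 day roots, and at 0 FPKM in ground 8 day roots, against 9.92 FPKM in ground 4 day roots. SESA1 was listed at 0 FPKM in flight 8 day roots, against 8.85 FPKM in flight 4 day roots, and at 0 FPKM in ground 8 day roots, against 2.55 FPKM in ground 4 day roots. SESA2 was thus the highest of the napins at 4 days and SESA1 the lowest, in flight and on the ground. The q-value of each napin was 0.00218 in the authors' deposited table for flight and 0.00217 in that for the ground, the smallest value each table holds. No fold change is given against a level of 0, and without the depth no upper limit can be put on it. In bulk roots, fewer cells holding a transcript and less of it per cell cannot be told apart.

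The napins are close paralogs whose reads can be shared or split between copies. The coding sequences of SESA2 and SESA3 are 89.7% identical, those of SESA1 and SESA2 80.7%, and those of SESA1 and SESA3 80.6%. The longest identical stretch between SESA2 and SESA3 is 49 nt. Levels of single napins, and their order, are uncertain to that extent. SESA4, the neighbouring napin, had no row in any table.

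Of the oleosins, OLEO4 had rows in 2 tables, while OLEO1 and OLEO2 had none. OLEO4 was listed at 0 FPKM in ground 8 day WS roots, against 26.6 FPKM in ground 4 day WS roots, with a q-value of 0.00217 in the authors' deposited table. It had no row in the comparison of ages in flight. At 4 days OLEO4 stood at 61.4 FPKM in flight WS roots, against 24.5 FPKM in ground WS roots, a log2 fold change of 1.33 ± 0.52 in the authors' deposited table. The ground 4 day level of OLEO4 thus appears in 2 tables, as 24.5 and 26.6 FPKM, because each table was scaled separately.

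EM6, which belongs to the late embryogenesis abundant proteins of wheat Em type, and the dehydrin XERO1 were among the most abundant of the set per length. EM6 stood at 452 FPKM in flight 4 day WS roots, against 191 FPKM in ground 4 day WS roots, a log2 fold change of 1.25 ± 0.44 in the authors' deposited table. That was the only table with a row for EM6, so its level at 8 days is not known. XERO1 stood at 0.900 FPKM in flight 8 day WS roots, against 104 FPKM in flight 4 day WS roots. This was a log2 fold change of -6.85 ± 1.37, or a level 115-fold lower at 8 days, with a q-value of 0.0484 in the authors' deposited table, just inside the threshold. At 4 days XERO1 stood at 101 FPKM in flight WS roots, against 46.95 FPKM in ground WS roots, a log2 fold change of 1.10 ± 0.53 in the authors' deposited table. XERO1 had no row in the comparison of ages on the ground.

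AT2G21820, annotated as a seed maturation protein, was the only one of the 10 genes with rows in 3 tables. It stood at 3.32 FPKM in flight 8 day WS roots, against 408 FPKM in flight 4 day WS roots. The log2 fold change was -6.94 ± 1.14, a level 123-fold lower at 8 days, with a q-value of 0.00804 in the authors' deposited table. On the ground it stood at 4.42 FPKM in 8 day WS roots, against 208 FPKM in 4 day WS roots. The log2 fold change was -5.56 ± 1.07, a level 47.2-fold lower at 8 days, with a q-value of 0.00217 in the authors' deposited table. At 4 days AT2G21820 stood at 398 FPKM in flight WS roots, against 192 FPKM in ground WS roots, a log2 fold change of 1.05 ± 0.50 in the authors' deposited table.

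AT3G05260, annotated as an NAD(P)-binding protein of the Rossmann fold, had a row in the comparison of ages in flight alone. It stood at 0.719 FPKM in flight 8 day WS roots, against 55.5 FPKM in flight 4 day WS roots. The log2 fold change was -6.27 ± 1.56, a level 77.2-fold lower at 8 days, with a q-value of 0.00681 in the authors' deposited table. Levels at 8 days of XERO1, AT2G21820 and AT3G05260 were close to the bottom of the scale, so the size of their fold changes rests on very low values. Antisense transcripts cannot be told from sense ones in these libraries.

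**Figure D2:**
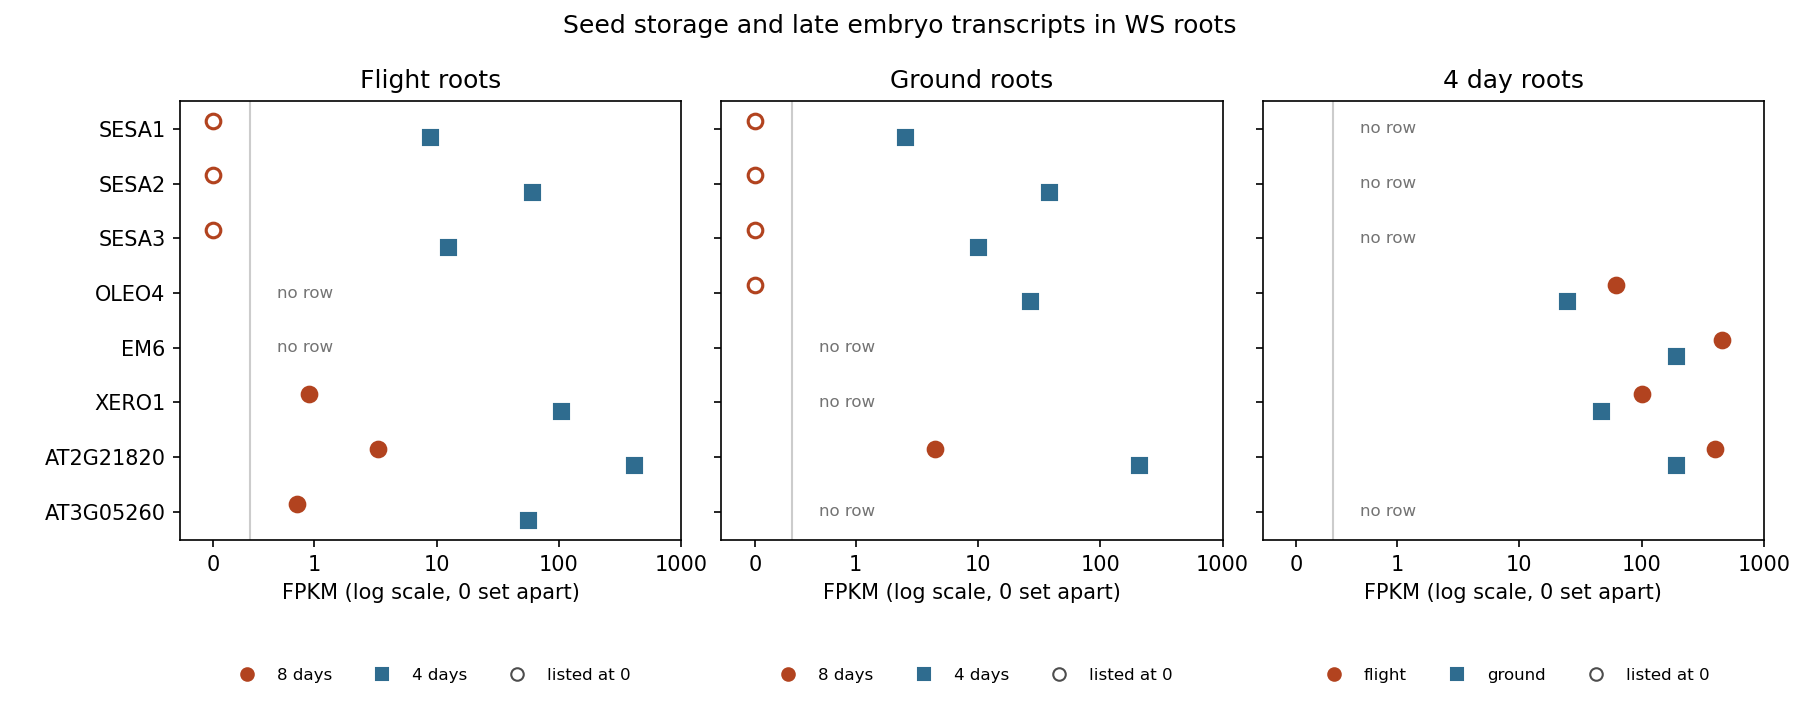
Levels of the 8 genes with a row, in FPKM on a log axis with 0 set apart (left, flight 8 days and 4 days; middle, ground 8 days and 4 days; right, 4 day flight and ground; each point is the authors' pooled value for 4 libraries; open circles mark levels listed at 0). At 4 days the levels run from 2.55 to 452 FPKM, while every 8 day level shown is at 4.42 FPKM or below.

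Taking the 4 day groups by level, EM6 and AT2G21820 came first in flight, at 452 and 398 FPKM within the same table, followed by XERO1 at 101 FPKM and OLEO4 at 61.4 FPKM. In ground 4 day roots of that table, AT2G21820 at 192 FPKM and EM6 at 191 FPKM stood next to each other, followed by XERO1 at 46.95 FPKM and OLEO4 at 24.5 FPKM. Among the genes known from the comparisons of ages only, SESA2 at 59.7 FPKM and AT3G05260 at 55.5 FPKM were neighbours in flight 4 day roots. No spread over libraries is given, so it cannot be said which neighbours in these orders differ.

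The comparison of ages in flight WS roots listed 6 of the 10 genes, all lower at 8 days, and 3 of those at 0. That table called 3.42% of its 17695 tested loci lower at 8 days. On the ground, 5 of the 10 genes were listed, all lower at 8 days, and 4 of those at 0, where 3.27% of 18017 tested loci were called lower. Because the genes were chosen with these rows known, the counts are not set against those shares as evidence. The median log2 fold change of the 3 genes above 0 in both flight groups was -6.85 in the authors' deposited table, against -0.50 for all 1047 listed loci above 0 and -0.81 for the 582 of them that were lower. With 1 FPKM added to every level, the median over the 6 listed genes was -5.41. On the ground AT2G21820 alone was above 0 in both groups, and with 1 FPKM added the median over the 5 listed genes was -4.79. By size of decrease among loci above 0, AT2G21820, XERO1 and AT3G05260 held ranks 3, 4 and 5 of 582 in flight, and AT2G21820 held rank 1 of 558 on the ground.

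Levels of exactly 0 at 8 days can be counted among called loci only, and how common they are among all tested loci is not known. In flight WS roots 24 of 1075 listed loci were at 0 at 8 days. Of these, 3 belonged to the set and 5 were other genes of the seed lists described below. In ground WS roots 32 of 1104 listed loci were at 0 at 8 days, of which 4 belonged to the set and 7 were other seed list genes. The 3 napins were among the 18 genes listed at 0 at 8 days in both tables. In Col-0, 2 of 1357 listed loci were at 0 at 8 days in flight and 2 of 2235 on the ground. None of them belonged to the set.

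At 4 days in WS, flight roots held more of 4 of these transcripts than ground roots, and none was listed lower. The 4 were OLEO4, EM6, XERO1 and AT2G21820, at 2.51-fold, 2.37-fold, 2.15-fold and 2.07-fold in the authors' deposited table. That table called 0.352% of its 17899 tested loci higher in flight. All 4 had a q-value of 0.0113 in the authors' deposited table, the smallest it holds. Their median log2 fold change was 1.18, against -0.62 for all 123 listed loci above 0 and 1.23 for the 58 of them that were higher in flight. By size of increase among those 58, OLEO4 held rank 25, EM6 rank 28, XERO1 rank 40 and AT2G21820 rank 43. The changes of the 4 genes thus lay within 0.27 of each other on the log2 scale, less than the standard error of any of them.

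Of 15 markers of photosynthetic tissue, 5 were listed higher and 0 lower in flight 4 day WS roots and 10 had no row of their own. Of all tested loci, 0.352% were called higher there. The 5 were the small Rubisco subunits RBCS1A, RBCS1B, RBCS2B and RBCS3B and Rubisco activase, RCA. RBCS1B, RBCS2B and RBCS3B are close paralogs, so reads may be shared among them. The summed level of the 5 markers was 514 FPKM in flight 4 day WS roots, against 239 FPKM in ground 4 day WS roots. RBCS1A alone stood at 333 and 169 FPKM in these groups, so most of each sum was that 1 gene. The same 5 were listed lower at 8 days, with a summed level of 102 FPKM in flight 8 day WS roots, against 528 FPKM in flight 4 day WS roots. On the ground the sum was 106 FPKM in 8 day WS roots, against 260 FPKM in 4 day WS roots. Between ages in WS, 3.42% of all tested loci were called lower at 8 days in flight and 3.27% on the ground. Between flight and ground in 8 day WS roots, 0 of the 15 markers had a row, where 5.11% of all tested loci were called in either direction. In Col-0 no gene of the set had a row. There 2 of the 15 markers at 4 days and 6 at 8 days were listed lower in flight than on the ground. Of the 5 markers named above, RBCS1A alone was among them, so these were largely other genes of the list. Markers of the list were also lower at 8 days in Col-0, 8 of 15 in flight and 4 of 15 on the ground. In the same order, these 4 Col-0 comparisons called 7.21%, 4.05%, 6.78% and 11.2% of all tested loci in either direction. The part of these markers of photosynthetic tissue in the results on the seed transcripts was not tested. Of 12 root markers, none had a row of its own in the 4 day comparison. The endodermal regulator SCR stood at 6.35 FPKM in flight 8 day WS roots, against 13.6 FPKM in flight 4 day WS roots. On the ground SCR stood at 7.87 FPKM in 8 day WS roots, against 13.3 FPKM in 4 day WS roots, and WOX5, a regulator of the root stem cell niche, at 14.1 FPKM in 8 day WS roots, against 27.3 FPKM in 4 day WS roots. Root markers listed lower at 8 days in WS were thus 1 of 12 in flight and 2 of 12 on the ground. The other 11 in flight and 10 on the ground had no row of their own. The part of root markers in the results on the seed transcripts was not tested.

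**Figure D3:**
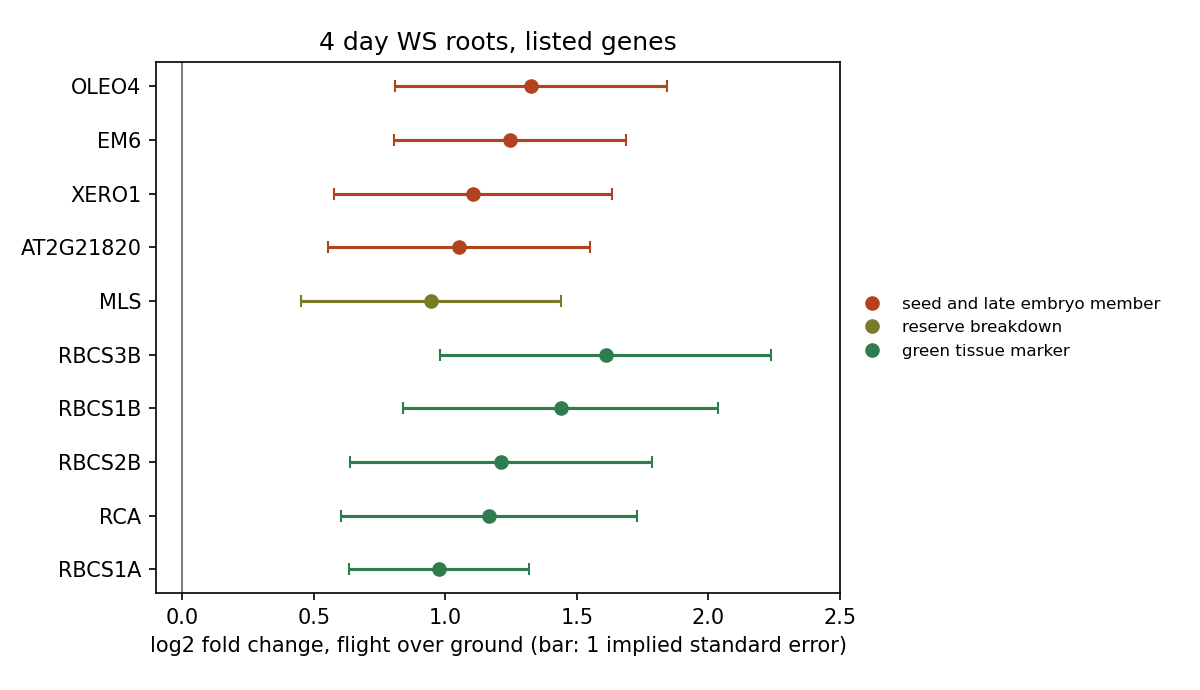
Log2 fold change of flight over ground in 4 day WS roots for the listed genes of the set, of reserve breakdown and of green tissue (points, the authors' deposited values; bars, 1 implied standard error). The 4 genes of the set run from 1.05 to 1.33 and the 5 green tissue markers from 0.98 to 1.61, on the same side of 0.

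The napins had no row in the 4 day comparison, and their 4 day levels in flight and on the ground can only be set side by side from the separately scaled tables of the 2 age comparisons. These tables share no library. The ratio of the flight 4 day level to the ground 4 day level was 3.46 for SESA1, 1.55 for SESA2, 1.25 for SESA3 and 1.96 for AT2G21820. Levels of the same group in different tables differ by a nearly constant factor, with median ratios of 1.03 over 64 genes for flight 4 day WS roots and 1.09 over 57 genes for ground 4 day WS roots. After levels were shifted by these factors, the ratios were 3.67, 1.65, 1.32 and 2.08 in the same order of genes. For AT2G21820 the shifted ratio lies beside the 2.07-fold of the direct comparison by construction, since the same groups enter both. The 4 ratios of the set were above 1, but so were those of 180 of the 227 genes listed lower at 8 days in both tables, which is 79.3%. After the shift 196 of the 227 were above 1, or 86.3%, with a median ratio of 1.29, close to the 1.32 of SESA3. Among all 433 genes with a row in both tables, 210 had a ratio above 1, and 234 after the shift. SESA1, with the largest ratio, also had the lowest levels of the 4 genes. No error of these ratios can be given.

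**Figure D4:**
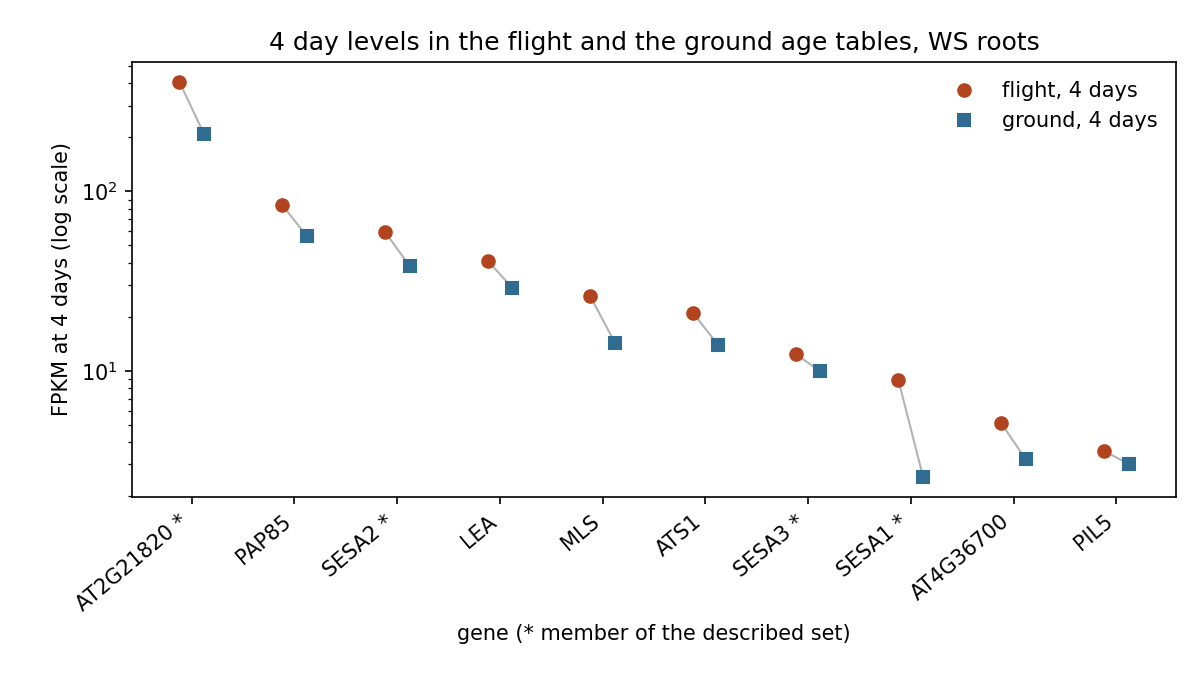
Levels at 4 days in WS roots, in FPKM on a log axis, of the 10 seed list genes with a row in both age comparisons (circles, flight; squares, ground; stars mark genes of the set; points are the authors' pooled values from separately scaled tables). Each circle lies above its square, with ratios from 1.18 for PIL5 to 3.46 for SESA1.

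At 8 days, 0 of the 10 genes had a row in the comparison of flight with ground in WS, where Cuffdiff called 5.11% of 17365 tested loci in either direction. Unadjusted p-values of uncalled loci are not among the values used here, so no count at an unadjusted threshold can be given. For AT2G21820 the difference at 8 days can be reached through its 3 listed comparisons, as a log2 value of -0.33 ± 1.64, flight over ground. The error adds the 3 standard errors as independent, although the comparisons share their 4 day groups, and it is larger than the value. In Col-0 roots 0 of the 10 genes had a row in any of the 4 comparisons. Cuffdiff called 7.21% of tested loci between flight and ground at 4 days in Col-0, 4.05% at 8 days, 6.78% between ages in flight and 11.2% between ages on the ground. Whether the accessions differ in these genes was not tested, since a missing row gives no level.

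The wider set of seed genes was described with 6 lists of 84 genes, 10 of them the set itself. Counts of list genes take only rows that stand alone at a locus. Between ages in WS, 2 more list genes in flight and 3 on the ground had rows only at loci of several genes. One of these loci, that of the late embryogenesis abundant protein LEA4-5, was lower at 8 days, at -1.26 ± 0.64 in flight and -1.26 ± 0.65 on the ground. In WS, 14 of the 84 were listed lower at 8 days in flight and 0 higher, with 8 at 0. That is 16.7% of the lists, beside 3.42% of all tested loci. On the ground 14 were listed lower and 0 higher, with 11 at 0, which is again 16.7%, beside 3.27% of all tested loci. The lists were chosen with results of these tables known, so these shares are a description. Without the set these counts were 8 of 74 in flight, or 10.8%, and 9 of 74 on the ground, or 12.2%. Of the 13 seed storage proteins, 5 were listed lower in each of these tables and all 5 at 0 at 8 days. They were the 3 napins and 2 cupin family proteins, PAP85 and AT4G36700, which like all further genes at 0 named in this paragraph were chosen after their values were seen. PAP85, a vicilin-like protein, was listed at 0 FPKM in flight 8 day WS roots, against 84.0 FPKM in flight 4 day WS roots, and at 0 FPKM in ground 8 day WS roots, against 56.4 FPKM in ground 4 day WS roots. The caleosin ATS1, another oil body protein, was listed at 0 FPKM in flight 8 day WS roots, against 21.0 FPKM in flight 4 day WS roots, and at 0 FPKM in ground 8 day WS roots, against 14.0 FPKM in ground 4 day WS roots. The dehydrin LEA, AT2G21490, was listed at 0 FPKM in flight 8 day WS roots, against 41.1 FPKM in flight 4 day WS roots, and at 0 FPKM in ground 8 day WS roots, against 29.0 FPKM in ground 4 day WS roots. AT1G48990, an oleosin family protein, was listed at 0 FPKM in flight 8 day WS roots, against 16.0 FPKM in flight 4 day WS roots, and had no row for the ground. SOM, a zinc finger repressor of germination, was listed at 0 FPKM in ground 8 day WS roots, against 13.0 FPKM in ground 4 day WS roots. The late embryogenesis abundant proteins ECP63 and AT2G42560 were likewise listed at 0 FPKM in ground 8 day WS roots, against 8.76 and 9.51 FPKM in ground 4 day WS roots.

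Of 16 regulators of seed maturation and germination, PIL5, a phytochrome-interacting factor that holds back germination in the dark, was listed lower at 8 days in both treatments. Its log2 fold change was -1.32 ± 0.81 in flight WS roots and -2.29 ± 1.12 in ground WS roots in the authors' deposited tables. LEC2 and ABI5 had rows in WS only at loci that hold several genes, so their levels are uncertain and the counts leave them out. Between ages on the ground, the LEC2 locus was higher at 8 days, at 0.71 ± 0.35. The ABI5 locus was lower there, at -0.39 ± 0.25, in the authors' deposited table. Of 11 genes of reserve breakdown, malate synthase, MLS, was lower at 8 days, with a log2 fold change of -4.33 ± 0.71 in flight WS roots and -3.13 ± 0.67 in ground WS roots in the authors' deposited tables. Isocitrate lyase, ICL, had a row in WS only between ages in flight, at a locus of several genes. That locus was lower at 8 days, at -1.36 ± 0.82 in the authors' deposited table. The peroxisomal oxidase ACX1 was lower at 8 days in flight WS roots, at -0.63 ± 0.33 in the authors' deposited table. In the 4 day comparison of flight with ground in WS, 5 of the 84 genes were listed higher, which is 5.95% beside 0.352% of all tested loci, and 0 lower. Of those 5, 4 belong to the set, which was chosen with these rows known. Without the set the count was 1 of 74, or 1.35%. The 1 gene outside the set was MLS. It stood at 25.3 FPKM in flight 4 day WS roots, against 13.2 FPKM in ground 4 day WS roots. This was a log2 fold change of 0.95 ± 0.49 in the authors' deposited table.

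In Col-0 the listed seed genes were regulators, late embryogenesis abundant proteins and enzymes of reserve breakdown, and 0 of 13 storage proteins and 0 of 12 oil body proteins had a row. At 4 days, isocitrate lyase, ICL, stood at 12.7 FPKM in flight Col-0 roots, against 4.29 FPKM in ground Col-0 roots, a log2 fold change of 1.57 ± 0.42 in the authors' deposited table. ICL was lower at 8 days, with a log2 fold change of -2.69 ± 0.45 in flight Col-0 roots and -1.41 ± 0.54 in ground Col-0 roots in the authors' deposited tables. EEL, a bZIP factor that binds the EM1 promoter, was higher in flight than on the ground, at 1.06 ± 0.40 at 4 days and 0.69 ± 0.28 at 8 days in the authors' deposited tables for Col-0. Between ages in ground Col-0 roots EEL was higher at 8 days, at 0.74 ± 0.38, as was PCK1, phosphoenolpyruvate carboxykinase, at 0.50 ± 0.26, in the authors' deposited table. The thiolase PKT3, the lipase SDP1 and the oxidase ACX2 were lower at 8 days on the ground, at -0.54 ± 0.20, -0.49 ± 0.34 and -0.49 ± 0.27, in the authors' deposited table for Col-0. ACX2 was also lower at 8 days in flight Col-0 roots, at -0.53 ± 0.27 in the authors' deposited table. PKT3 was lower in flight than on the ground at 4 days, at -0.51 ± 0.23, and so was the vacuolar processing enzyme BETA-VPE, at -0.86 ± 0.48, in the authors' deposited table for Col-0. Between ages, the late embryogenesis abundant protein AT3G02480 was lower at 8 days, at -1.58 ± 0.74 in flight and -1.60 ± 0.97 on the ground, and AT4G13230 was higher at 1.34 ± 0.77 on the ground, in the authors' deposited tables for Col-0. Over both directions the listed share of the 84 genes in Col-0 was 4.76% between flight and ground at 4 days, beside 7.21% of all tested loci, and 1.19% at 8 days, beside 4.05%. Between ages it was 3.57% in flight, beside 6.78% of all tested loci, and 10.7% on the ground, beside 11.2%. These shares count every gene of the lists, tested or not, and lie near or below those of all tested loci, so they are no result about seed genes. In all, 2 of the 84 genes were higher and 2 lower in flight than on the ground at 4 days, and 1 higher and 0 lower at 8 days, in Col-0. Between ages in Col-0, 0 were higher and 3 lower at 8 days in flight, and 3 higher and 6 lower on the ground. These counts leave out LEC2, which had rows in Col-0 only at a locus of several genes. That locus was higher at 8 days, at 0.51 ± 0.34 in flight and 0.83 ± 0.37 on the ground, in the authors' deposited tables.

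Genes with a pattern like that of the set were ranked over the 3 WS tables that list it, by Euclidean distance between a gene's 3 log2 fold changes and the set's medians of 1.18, -6.85 and -5.56. Those medians rest on 4, 3 and 1 genes. Among 34 genes outside the set with a level above 0 throughout, the nearest was AT1G03106, annotated as an uncharacterized protein, at a distance of 0.215. AT1G03106 stood at 430 FPKM in flight 4 day WS roots, against 186 FPKM in ground 4 day WS roots, a log2 fold change of 1.21 ± 0.45 in the authors' deposited table. Between ages its log2 fold change was -6.99 ± 0.68 in flight WS roots and -5.40 ± 0.60 in ground WS roots in the authors' deposited tables. Next came GLYI8, of the glyoxalase I family, at a distance of 1.65, with log2 fold changes of 1.76 ± 0.60 at 4 days, -5.76 ± 1.23 between ages in flight and -4.46 ± 1.35 between ages on the ground in the authors' deposited tables. RBCS2B, RBCS3B, RBCS1B, the glycolate oxidase GOX1, MLS and the aspartyl protease AT1G62290 followed, at distances from 2.94 to 3.70. The 3 tables share their 4 day groups, so the 3 values of a gene are not independent of each other.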

How the data were processed

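Messenger RNA was measured in 32 root libraries, 4 in each of 8 groups, and the authors' 8 deposited comparison tables were used. Per the submitters' processing notes, the tools were STAR 2.5.1b, Cufflinks, Cuffdiff, Picard, Trimmomatic 0.36 and FastQC 0.11.2, with TAIR10. Their settings are not given here. The deposited FPKM values are the authors' pooled group levels. The deposited log2 fold change is given as flight over ground or as 8 over 4 days, with its sign reversed where the authors used the other order. The deposited test statistic is a score per locus. The log2 fold change divided by this statistic, without sign, gave the standard error. Statistic and p-value did not keep the same order. For XERO1 in 4 day WS roots, flight over ground, the statistic had a size of 2.09 and the Cuffdiff p-value was 5e-05. Between ages in flight WS roots, XERO1 had a statistic of size 5.01 and a Cuffdiff p-value of 0.0029. The deposited p-value and q-value are the authors', and tables list only loci at a q-value of 0.05 or less. They hold 0 columns of single libraries, so library depth is unknown. The ± and q-values rest on whatever spread the pooled roots had, and they need not match each other.

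How many loci each table had tested was worked out from the listed p-values, their ranks and q-values, a step checked on simulated data. Members and lists were chosen with earlier results of these data known. Named beside the 10 genes are list genes with a row of their own, up to the 8 largest changes per comparison above 0 FPKM in both groups, and the 8 most similar genes. Seed list genes with rows only at loci of several genes are named with the change of the locus. Others are said to be chosen after their values were seen. In RefSeq TAIR10.1, 111 of 111 list genes were matched. Alternatives were a q-value of 0.01, a minimum of 5 FPKM, loci of several genes left out, a pseudocount of 1 FPKM, centring on the listed median, the napins taken as 1 and, chosen after seeing the data, the shift between age tables. Python 3.11.15, pandas 2.3.3, numpy 2.4.6, Biopython 1.88 and matplotlib 3.10.9 were used.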

Additional observations from a re-analysis of the deposited data

How the results depend on the processing

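Of 16 counts of listed genes, for the set and for the other seed list genes in 8 comparisons, 6 were 0 as deposited and could not move under a stricter filter. The 10 others stayed within 1.5 times under a minimum of 5 FPKM, and 8 of the 10 did so at a q-value of 0.01 or less. Leaving out loci of several genes could change nothing for the set, whose rows all stand alone. The exceptions were in the 4 day flight comparison in WS, where the 4 genes of the set became 0 and the 1 other seed list gene, MLS, became 0, because the smallest q-value of that table is 0.0113. The median log2 fold change between ages in flight WS roots was -5.41 with a pseudocount of 1 FPKM over 6 genes, and also -5.41 with the napins taken as 1, against -6.85 without; the medians of the other 2 comparisons moved by less than the standard errors of their genes. The shift between the age tables, added after seeing the data, raised the 10 side by side ratios by a common factor. Centring on the median of listed loci raised the 4 day flight changes in WS to 1.95 for OLEO4, 1.87 for EM6, 1.73 for XERO1 and 1.68 for AT2G21820. Neither a filter nor a pseudocount can reverse the direction of a listed change. The shift and the centring could only raise the values named here. That no direction reversed is therefore no sign of robustness. The direct change could not be compared with the route through the other 3 comparisons, because 0 genes of the set had rows in all 4 tables of an accession; the value given for AT2G21820 at 8 days has no direct counterpart. No paired analysis was possible because the tables hold no values per replicate, and leaving out single replicates could not be run for the same reason. Levels near or at 0 at 8 days are limited by a depth that is unknown here.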

Other observations

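The genes named here lie outside the 6 lists and were chosen after their values in WS roots were seen, because they were at or near 0 at 8 days, so they form no group. AT1G54860, annotated as a membrane glycoprotein, and its neighbour AT1G54870, annotated as an NAD(P)-binding protein of the Rossmann fold like AT3G05260, were both higher in flight at 4 days. AT1G54860 stood at 49.4 FPKM in flight 4 day roots, against 21.3 FPKM in ground 4 day roots, a log2 fold change of 1.21 ± 0.51 in the authors' deposited table. It was listed at 0 FPKM in flight 8 day roots, against 50.7 FPKM in flight 4 day roots, and at 0 FPKM in ground 8 day roots, against 23.2 FPKM in ground 4 day roots. AT1G54870 stood at 247 FPKM in flight 4 day roots, against 115 FPKM in ground 4 day roots, a log2 fold change of 1.10 ± 0.43 in the authors' deposited table. It was listed at 0 FPKM in ground 8 day roots, against 125 FPKM in ground 4 day roots.

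The MADS-box gene AGL67 was listed at 0 FPKM in flight 8 day roots, against 53.2 FPKM in flight 4 day roots, and at 0 FPKM in ground 8 day roots, against 32.3 FPKM in ground 4 day roots. The metallothionein AtMT4a was listed at 0 FPKM in flight 8 day roots, against 59.5 FPKM in flight 4 day roots, and at 0 FPKM in ground 8 day roots, against 22.7 FPKM in ground 4 day roots. SMP1, seed maturation protein 1, was listed at 0 FPKM in ground 8 day roots, against 9.74 FPKM in ground 4 day roots. The small heat shock protein HSP17.4 stood at 1.48 FPKM in flight 8 day roots, against 83.2 FPKM in flight 4 day roots, a log2 fold change of -5.81 ± 1.60 in the authors' deposited table. On the ground HSP17.4 stood at 1.61 FPKM in 8 day roots, against 41.5 FPKM in 4 day roots, a log2 fold change of -4.69 ± 1.51 in the authors' deposited table.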
